A study of Danio rerio with 9 samples.

Results

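The annotated single-exon cardiac lincRNAs are long intergenic noncoding RNAs that were detected in zebrafish heart, consist of 1 exon, and already carried an entry in Ensembl or in zflncRNApedia, a catalogue of zebrafish long noncoding RNAs. They were taken from the 813 lincRNAs that the study listed as expressed in embryonic or adult heart, of which 73 had 1 exon. A total of 6 of those 73 lie on chromosome 4, 1 lincRNA elsewhere was listed as bidirectional with a protein-coding gene, and 2 were left out by identifier (TCONS_00028652 and TCONS_00040395), so 64 lincRNAs remained. Their values were read from a table of 103079 assembled transcripts. The study removed unannotated candidates with 1 exon, so every single-exon lincRNA of its heart lists is an annotated one. A lincRNA entered a heart list when it exceeded 0.1 FPKM (fragments scaled to transcript length and to the mapped fragments of the sample) in at least 2 of the 3 samples, and the deposited values gave the same listing for 64 of 64. Detection in heart is therefore a property of the choice and not a result, and the direction of a heart-against-muscle difference is in part fixed by it.

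LincRNAs are transcribed from DNA between protein-coding genes, do not carry a long open reading frame, and include scaffolds for chromatin regulators, regulators of neighboring genes in cis, and many RNAs of unknown role. Most are spliced, and a lincRNA with a single exon has no splice junction that would fix its strand or separate it from an overlapping transcript. In the vertebrate heart, several lincRNAs are known to act in the commitment of mesoderm to the cardiac lineage and in the response of the adult myocardium to load. No function is known from the sources used here for any of the 64.

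The study compared RNA from 3 tissue types of wild type zebrafish of the WIK strain, with 3 samples each: embryonic heart from animals of 4 days, adult heart from animals of 6 months, and adult muscle, for which the labels give only adult fish. The sources used here name no transgene, mutation or treatment for any of these samples. The sources used here do not state whether embryonic hearts were pooled, or whether an adult heart and an adult muscle sample came from the same fish, so the spread between samples may be in part technical. The groups differ in age and in tissue, and in whole tissue fewer cells of a type and less RNA per cell cannot be told apart.

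The 9 samples are given in FPKM, and read totals are not used here. Pearson's correlation of log2(FPKM + 0.1) across transcripts ran from 0.798 to 0.806 between embryonic heart samples, from 0.857 to 0.886 between adult heart samples and from 0.858 to 0.871 between muscle samples. Among the 64 lincRNAs, the median SD within a tissue type was 0.56 log2 units in embryonic heart, 0.37 in adult heart, and for muscle 0.50, beside 0.55, 0.41 and 0.43 over the 69118 transcripts tested. The transcripts carry assembly identifiers without gene names, so marker genes of heart and muscle were not analysed here. Low values on short transcripts rest on few fragments. From the spacing of the lowest values, 0.1 FPKM on a transcript of 1000 nt corresponds to roughly 2.28 to 3.76 fragments per sample, an estimate that is loose because only 22.2% to 80.0% of the low values lay within 0.1 of a whole fragment.

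One member had a primer pair for quantitative PCR in the study. It is TCONS_00073910 (zgc:153240pa_1), at chromosome 3, 26674148 to 26675088, 940 nt (Zv9), and it was also the member with the smallest adjusted p for a higher level in embryonic heart. Its primers, of 20 and 21 nt, are shown each from 5′ to 3′. They were not placed on the transcript here, so the stretch between them is not given.
TCONS_00073910 forward: gggactctgaaaaacgtgtc
TCONS_00073910 reverse: ggaaataaaagccgttttgcg

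Of the 64 lincRNAs, 27 carried an Ensembl transcript name and 37 a zflncRNApedia name. They were spread over 22 chromosomes, with 10 on chromosome 5, 8 on chromosome 7 and 6 on chromosome 3. The study listed 45 in both hearts, 8 in embryonic heart only and 11 in adult heart only. Length ran from 114 to 10851 nt with a median of 887.5 nt. The median was 866 nt for Ensembl names and 940 nt for zflncRNApedia names, beside 749 nt for annotated cardiac lincRNAs with 2 exons and 1035 nt for those with 3 or more exons. Genomic span equalled transcript length for 64 of 64, which follows from the choice of lincRNAs with 1 exon. Only 1 was shorter than 200 nt, 34 measured 200 nt to under 1000 nt, 22 measured 1000 nt to under 5000 nt and 7 measured 5000 nt or more.

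Of the 37 zflncRNApedia names, 28 hold the symbol of a gene in the RefSeq gene table (assembly GRCz12tu, used for names and chromosomes only), and 26 of these genes lie on the chromosome of the lincRNA. The exceptions are zgc:92594 and ccbe1. The symbols include tnnt3b and tnnc1a, which encode troponin subunits of fast skeletal and of cardiac muscle, tbx2a and msx1a, which encode transcription factors of the T-box and homeobox families, twsg1a, a modulator of bone morphogenetic protein signaling, loxl2a, a lysyl oxidase of the extracellular matrix, and dhps and gart, which encode enzymes of hypusine and of purine synthesis. Only chromosomes were compared and not positions, so closeness to the named gene was not tested. A shared name says nothing of the function of a lincRNA.

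**Figure D1:**
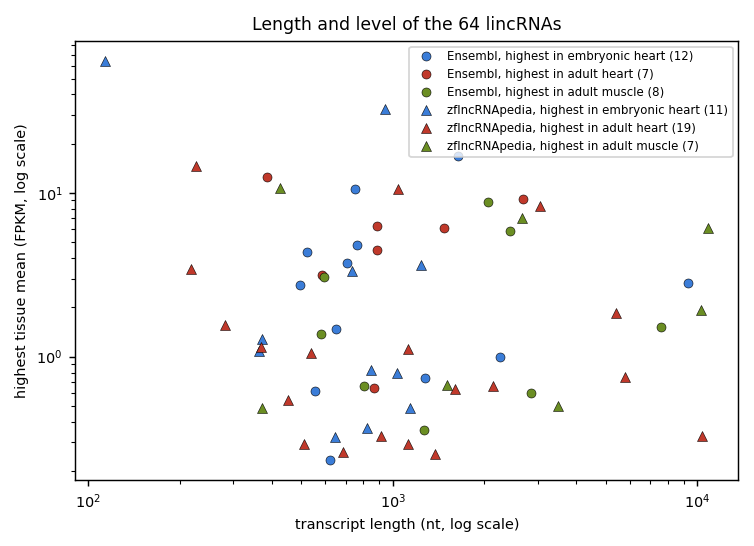
Each of the 64 lincRNAs is plotted by transcript length (nt, log scale) and by its highest tissue mean (FPKM, log scale, mean of 3 samples), with the marker shape for the annotation source and the color for the tissue type of the highest mean. The shortest lincRNA (114 nt) has the highest mean, 64.3 FPKM, and no member of 5000 nt or more exceeds 6.07 FPKM.

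The lincRNAs were present at similar median levels in the 3 tissue types. The median of the 64 means was 0.768 FPKM for embryonic heart, 0.703 for adult heart and 0.701 for muscle. A mean above 0.1 FPKM was reached by 55, 56 and 55 lincRNAs in the 3 tissue types, and 42 exceeded it in all of them. A mean above 1 FPKM was reached by 26, 31 and 30, and 19 exceeded it in all 3. A mean above 10 FPKM was seen for 4 lincRNAs in embryonic heart, for 3 in adult heart and for 1 in muscle. Embryonic heart had the highest mean for 23 lincRNAs, adult heart for 26 and muscle for 15. In embryonic heart, 3 lincRNAs made up 55.4% of the summed FPKM of all 64, against 29.3% in adult heart and 22.0% in muscle. Without the shortest member, TCONS_00085215, the highest 3 of the other 63 made up 42.5%, 29.3% and 23.0% in the same order.

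**Figure D2:**
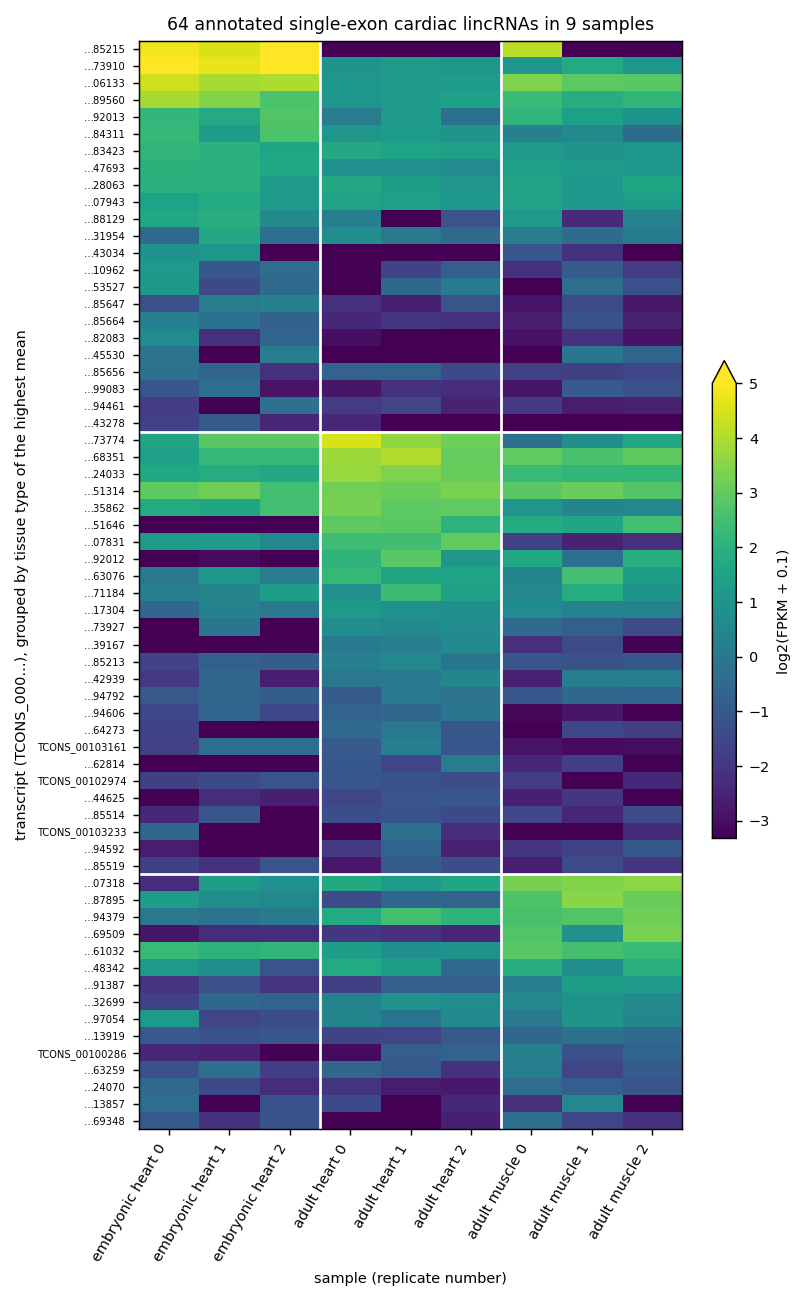
The color gives log2(FPKM + 0.1) of the 64 lincRNAs (rows, grouped by the tissue type of the highest mean and ordered by that mean) in the 9 samples (columns, replicate numbers 0 to 2 of the labels), and the scale is capped at 5. The groups hold 23, 26 and 15 lincRNAs, and the darkest cells are values at or near 0, such as those of TCONS_00085215 in adult heart.

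Annotation source went with larger gaps between medians than tissue type did. LincRNAs with an Ensembl name had median means of 1.48, 1.51 and 1.53 FPKM in embryonic heart, adult heart and muscle, and those with a zflncRNApedia name had 0.383, 0.439 and 0.468. The same medians were 0.333, 0.347 and 0.283 for the 125 annotated cardiac lincRNAs with 2 exons, 0.664, 0.597 and 0.659 for the 122 with 3 or more exons, and 0.262, 0.633 and 0.482 for 333 unannotated ones, all chosen with the same placement and exclusions. These medians were not tested against each other.

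TCONS_00051314 (ENSDART00000153375, chromosome 20, 47231598 to 47234276, 2678 nt) was abundant in all 3 tissue types. Its values were 7.61, 9.03 and 5.52 FPKM in embryonic heart, 9.19, 8.43 and 9.92 in adult heart, and 7.20, 8.41 and 6.80 in adult muscle. Adult heart lay above muscle in every sample by a narrow margin, and embryonic heart overlapped both. It stood among the 6 highest means in each tissue type, and its log2 difference was 0.34 between adult and embryonic heart (limma adjusted p = 0.306) and 0.30 between adult heart and muscle (limma adjusted p = 0.378). TCONS_00007943 (ENSDART00000156010), the longest member with an Ensembl name at 9289 nt, was at 2.76, 3.41 and 2.34 FPKM in embryonic heart, 2.70, 2.52 and 2.08 in adult heart, and 2.68, 2.06 and 2.37 in adult muscle. None of its 3 comparisons was called. The 2 lincRNAs left out by identifier had higher means than any member in each tissue type: TCONS_00028652 had means of 161, 112 and 127 FPKM and TCONS_00040395 of 183, 583 and 51.0 FPKM in embryonic heart, adult heart and muscle.

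Zeros and near-zero estimates were not confined to the less abundant members. They occurred, for example, in TCONS_00085215, which had the highest mean of the 64. Another example is TCONS_00051646, with a mean of 6.26 FPKM in adult heart. An exact 0 was listed in at least 1 sample for 15 lincRNAs, 2 of them with an Ensembl name. TCONS_00039167, TCONS_00051646 and TCONS_00062814 were listed at 0 in all 3 embryonic heart samples, TCONS_00043034 and TCONS_00085215 in all 3 adult heart samples, and TCONS_00043278 in all 3 muscle samples. Of all 103079 transcripts, 14442, 10076 and 10102 were at 0 throughout those tissue types. A different kind of low value, above 0 but below 0.001 FPKM, occurred 18 times in 9 lincRNAs, 8 of them with an Ensembl name. Such values are less than a single fragment can give and so are fractions assigned by the estimation program.

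The 64 lincRNAs were compared between tissue types with limma on log2(FPKM + 0.1), fitted to all 69118 transcripts with a mean above 0.1 FPKM in at least 1 tissue type. All 64 passed this filter, as their choice by detection in heart favored. A lincRNA was called different when the Benjamini-Hochberg adjusted p was below 0.05 and the ratio of mean FPKM exceeded 2. A log2 difference on this scale understates the change of low transcripts. The 3 comparisons share samples, so a call in one is not independent of a call in another. In all, 34 lincRNAs were called in at least 1 comparison (14 in 1, 16 in 2 and 4 in 3), and 30 were called in none. That is 53.1% of the 64, beside 39.2% of the 69118 transcripts called in at least 1 of the 3 comparisons. The sets are unlike, since the 64 had to exceed 0.1 FPKM in at least 2 of the 3 samples of a heart. For the 69118, a mean above 0.1 FPKM in 1 tissue type was enough. How far this difference in choice bears on the shares was not tested. The same holds for every share of the 64 set beside all transcripts below, also between the hearts.

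Adult heart against embryonic heart asked which lincRNAs differ between the developing and the mature organ. Adult heart was higher for 14 of the 64 and embryonic heart for 10, 37.5% in all, where 19.4% of all transcripts tested were called (12.2% toward adult heart and 7.23% toward embryonic heart). The samples of the 2 hearts did not overlap for 19 lincRNAs with adult heart above and for 13 with embryonic heart above, against 39.3% of all transcripts (24.2% and 15% by direction). The median log2 difference was 0.23 over the 64 and 0.18 over all transcripts. Of the 14 called higher in adult heart, 6 had been listed by the study in adult heart only (TCONS_00039167, TCONS_00051646, TCONS_00062814, TCONS_00064273, TCONS_00073927 and TCONS_00092012). Of the 10 called higher in embryonic heart, 2 had been listed in embryonic heart only (TCONS_00082083 and TCONS_00085215). Those directions were in part set by the listing. Among the 45 listed in both hearts, 8 were called in each direction. Quantile normalization of the log2 values moved the median over all transcripts from 0.18 to −0.01 and that of the 64 from 0.23 to −0.19, and changed the share of calls over all transcripts that were higher in adult heart from 62.8% to 52.3%. With it, 11 of the 64 were called toward adult heart and 12 toward embryonic heart, so the surplus toward adult heart turned. It also turned at an adjusted p below 0.01 in limma (6 toward adult heart and 7 toward embryonic heart), and without adult heart replicate 1 there were 8 calls in each direction.

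**Figure D3:**
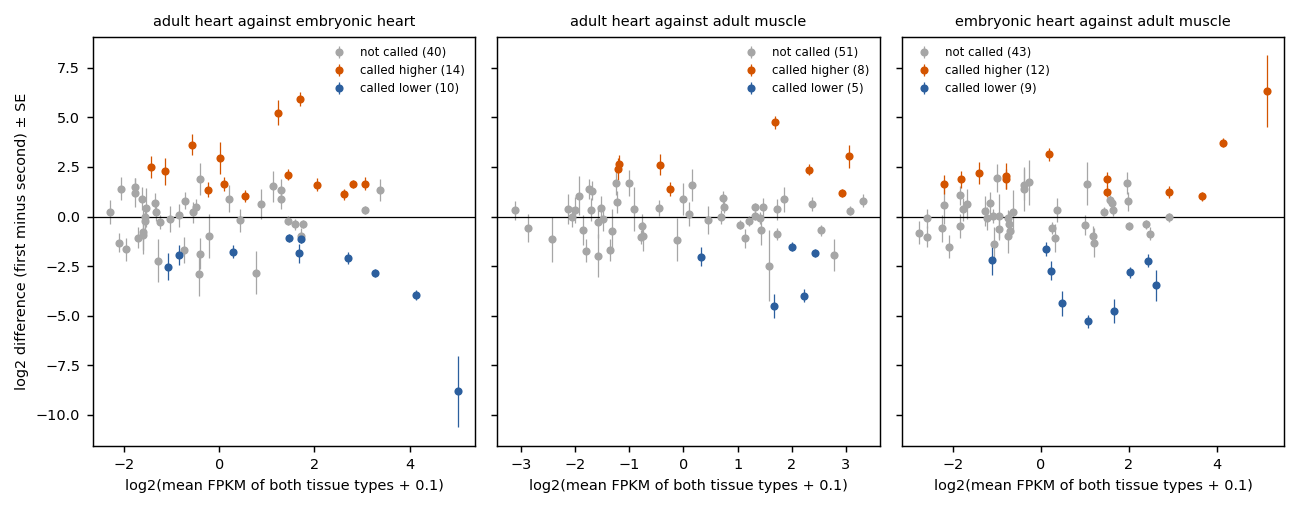
Each panel plots the log2 difference of the 64 lincRNAs (first tissue type minus second, with its standard error) against the log2 of their mean FPKM over both tissue types plus 0.1. Calls in either direction are colored, and their numbers were 14 and 10, 8 and 5, and 12 and 9 in the 3 panels from left to right.

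Among the lincRNAs higher in embryonic heart, the smallest adjusted p belonged to TCONS_00073910, the member with the primer pair. It was at 37.9, 26.5 and 33.8 FPKM in embryonic heart, 1.86, 2.15 and 2.02 in adult heart, and 2.04, 3.27 and 1.93 in adult muscle. Every embryonic sample lay far above every adult sample, and the adult tissues overlapped each other. Its mean of 32.7 ± 5.75 FPKM (SD, n = 3) in embryonic heart against 2.01 ± 0.145 in adult heart gave a log2 difference of -3.95 ± 0.24 (SE, limma adjusted p = 2.64e-05). The next, TCONS_00006133 (ENSDART00000152252, chromosome 1, 29426875 to 29428514, 1639 nt), was at 20.3, 14.5 and 15.8 FPKM in embryonic heart, 2.02, 2.35 and 2.32 in adult heart, and 10.5, 7.45 and 7.09 in adult muscle. Here muscle stood between the hearts without overlap, and the difference between adult and embryonic heart was -2.85 ± 0.22 (SE, limma adjusted p = 7.80e-05). TCONS_00089560 (ENSDART00000157096) had the same order, with 14.7, 10.6 and 6.21 FPKM in embryonic heart, 1.97, 2.13 and 2.63 in adult heart, and 4.76, 3.52 and 4.36 in adult muscle, and a log2 difference of -2.10 ± 0.31 (SE, limma adjusted p = 0.00214).

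Others called higher in embryonic heart had lower levels there, apart from TCONS_00085215, which is described below. TCONS_00047693 (twsg1apa_1, chromosome 2, 55465750 to 55466992, 1242 nt) was at 3.96, 3.92 and 3.03 FPKM in embryonic heart and 1.75, 1.75 and 1.51 in adult heart, a log2 difference of -1.07 ± 0.22 (SE, limma adjusted p = 0.0089). TCONS_00061032 was at 4.84, 4.06 and 4.31 FPKM against 2.45, 1.71 and 1.80, with a difference of -1.12 ± 0.23 (SE, limma adjusted p = 0.0088), and TCONS_00087895 at 2.38, 1.64 and 1.38 against 0.284, 0.586 and 0.516, with a difference of -1.77 ± 0.34 (SE, limma adjusted p = 0.00715). In all 3 the groups were apart, although the levels were a few FPKM. Among lower members, TCONS_00085664 was at 1.11, 0.784 and 0.494 FPKM in embryonic heart and 0.0959, 0.154 and 0.126 in adult heart (log2 difference -1.94), and TCONS_00082083 at 1.54, 0.119 and 0.555 against 0.0237, below 0.001 and below 0.001 (log2 difference -2.52). Both rest on low values in adult heart.

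The shortest member, TCONS_00085215 (mstx3_1, chromosome 5, 1249621 to 1249735, 114 nt), stood apart in its values. It was listed at 28.0, 22.4 and 143 FPKM in embryonic heart, at 0 in all 3 adult heart samples, and at 17.4, 0 and 0 in muscle. The embryonic samples spread widely, and replicate 0 of muscle came close to the lowest of them. The fitted difference between adult and embryonic heart was -8.81 ± 1.80 (SE, limma adjusted p = 0.00947), a value that depends on the pseudocount (-12.13 with 0.01 and -5.52 with 1), so no fold is given. A fragment on so short a transcript is worth more FPKM than on a longer one, and its part in this spread was not tested. Without this member, the summed FPKM of the other 63 was 154, 137 and 132 in the embryonic heart samples, where with it the sums were 182, 160 and 275.

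Among the lincRNAs higher in adult heart, TCONS_00051646 (ENSDART00000151198, chromosome 20, 55449014 to 55449904, 890 nt) showed the largest difference. It was listed at 0 in all 3 embryonic heart samples, at 7.48, 7.24 and 4.07 FPKM in adult heart and at 3.36, 2.91 and 5.62 in muscle. The adult tissues overlapped and both lay wholly above embryonic heart. The log2 difference between the hearts was 5.94 ± 0.35 (SE, limma adjusted p = 2.16e-05), and its size again depends on the pseudocount (9.24 with 0.01 and 2.82 with 1). TCONS_00039167 (mstx25_1, chromosome 18, 46337354 to 46337723, 369 nt) and TCONS_00062814 (tnnc1aia2_1, chromosome 23, 4652064 to 4652516, 452 nt), the latter named after the cardiac troponin C gene, were likewise listed at 0 in embryonic heart. In adult heart they were at 0.945, 1.08 and 1.43 and at 0.385, 0.231 and 1.02 FPKM, and their log2 differences were 3.63 ± 0.52 (SE, limma adjusted p = 0.00186) and 2.50 ± 0.58 (SE, limma adjusted p = 0.0161). Muscle values were 0.125, 0.271 and 0 FPKM for the former and 0.0889, 0.193 and 0 for the latter, below every adult heart sample in both. The study listed TCONS_00051646, TCONS_00039167 and TCONS_00062814 in adult heart only, so their direction against embryonic heart was in part set by the listing.

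Members present in both hearts and called higher in adult heart included some of the most abundant. TCONS_00024033 (lnc_msxe_1), at chromosome 14, 176623 to 177664, 1041 nt and named after the homeobox gene msx1a by an older symbol, was at 3.20, 3.47 and 2.99 FPKM in embryonic heart, 12.9, 10.4 and 8.25 in adult heart, and 4.89, 4.40 and 4.42 in adult muscle. No 2 tissue types overlapped and adult heart lay above both others, with a log2 difference of 1.66 ± 0.20 (SE, limma adjusted p = 0.000819) against embryonic heart. TCONS_00068351 (ENSDART00000150317, chromosome 25, 27097207 to 27097595, 388 nt) was at 2.47, 4.61 and 4.72 FPKM in embryonic heart, 13.7, 16.0 and 8.08 in adult heart, and 7.64, 5.94 and 7.50 in adult muscle, with a difference of 1.66 ± 0.33 (SE, limma adjusted p = 0.00838). TCONS_00094379 (lnc3_zgc:55733_1) at chromosome 7, 4350629 to 4353282, 2653 nt was at 0.879, 0.825 and 1.01 FPKM in embryonic heart, 3.31, 5.55 and 4.18 in adult heart, and 5.81, 6.59 and 8.79 in adult muscle, with a difference of 2.12 ± 0.26 (SE, limma adjusted p = 0.000815). Its order placed muscle above adult heart and adult heart above embryonic heart in every sample. TCONS_00007831, TCONS_00032699, TCONS_00035862, TCONS_00085213 (lnc1_thap1_1), TCONS_00017304 (lnc_capgb_1), TCONS_00073927 (zgc:162613pa2_1) and TCONS_00064273 were also called higher in adult heart, with log2 differences of 1.61, 1.63, 1.11, 1.36, 1.03, 2.96 and 2.29. Of these, TCONS_00032699 (chromosome 17, 11281912 to 11289503, 7591 nt) was at 0.213, 0.584 and 0.540 FPKM in embryonic heart and 1.24, 1.75 and 1.54 in adult heart, and TCONS_00017304 (chromosome 12, 23909868 to 23915255, 5387 nt) at 0.566, 1.17 and 0.918 against 2.09, 1.77 and 1.68. TCONS_00073927 was at 0, 0.854 and 0 against 1.63, 1.49 and 1.55, and TCONS_00064273 at 0.206, below 0.001 and below 0.001 against 0.657, 0.912 and 0.363. The groups did not overlap in any of the 4, and the last pair rested on embryonic samples at or near 0.

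TCONS_00092012 (ENSDART00000125757) and TCONS_00092013 (ENSDART00000155225) are the only members that overlap, by 77 nt on chromosome 7 (69800421 to 69801306 and 69801230 to 69801994). The first was at 0.00317, 0.0180 and below 0.001 FPKM in embryonic heart, 4.15, 7.29 and 2.01 in adult heart, and 3.24, 0.764 and 3.73 in adult muscle, and the second at 4.44, 3.33 and 6.63 FPKM in embryonic heart, 1.02, 2.32 and 0.723 in adult heart, and 4.29, 2.51 and 1.78 in adult muscle. In adult against embryonic heart they were called in opposite directions, with log2 differences of 5.24 ± 0.64 (SE, limma adjusted p = 0.000793) and -1.85 ± 0.48 (SE, limma adjusted p = 0.0249). Their summed FPKM was 4.44, 3.35 and 6.63 in embryonic heart, 5.16, 9.61 and 2.74 in adult heart, and 7.53, 3.28 and 5.51 in muscle. The sums overlapped between all tissue types, and the log2 difference of the sum between the hearts was 0.15 ± 0.49 (SE, limma adjusted p = 0.871), a fit chosen after the values were seen. With reads of 50 nt and no stated strand, how fragments were divided between the pair was not tested.

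Of the 24 calls between the hearts, 15 kept an adjusted p below 0.05 when each of the 6 samples was left out in turn. The count higher in adult heart, 14, was 9, 8 and 9 without adult heart replicates 0, 1 and 2. TCONS_00032699 lost its call only without adult heart replicate 1 (limma adjusted p = 0.0551). The calls of TCONS_00017304, TCONS_00035862, TCONS_00064273, TCONS_00073927, TCONS_00082083, TCONS_00085213 and TCONS_00085664 were lost on leaving out any adult heart replicate, and that of TCONS_00092013 without replicate 0 or 2. Each of these 8 was also lost without embryonic replicate 0, except TCONS_00064273, which was lost without 1 or 2, and their highest adjusted p ran from 0.0741 to 0.131. TCONS_00035862 and TCONS_00085664 were lost without embryonic replicate 1 as well, and TCONS_00017304, TCONS_00073927, TCONS_00082083 and TCONS_00092013 without replicate 2.

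Adult heart against adult muscle set the heart beside another muscular tissue of the adult. Adult heart was higher for 8 of the 64 lincRNAs and muscle for 5, 20.3%, where 20.7% of all transcripts were called (9.6% toward adult heart and 11.1% toward muscle). The share was near that of all transcripts. Samples did not overlap for 19 with adult heart above and 14 with muscle above, against 42.5% of all transcripts (20.8% and 21.7% by direction), and the median log2 difference was 0.22 against 0.00 over all transcripts. Since the 64 were chosen for detection in heart, a surplus on the heart side is not a result.

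TCONS_00007831 (ENSDART00000154208, chromosome 10, 5412909 to 5414387, 1478 nt) was the member most clearly higher in heart. It was at 2.16, 2.31 and 1.36 FPKM in embryonic heart, 5.25, 5.39 and 7.71 in adult heart, and 0.206, 0.0737 and 0.121 in adult muscle. The 3 tissue types did not overlap, and muscle was near the detection threshold of 0.1 FPKM. Its log2 difference between adult heart and muscle was 4.75 ± 0.33 (SE, limma adjusted p = 1.89e-05), a ratio of means of 45.8. TCONS_00073774 (lnc1_zgc:171446_1) at chromosome 3, 3696089 to 3696315, 226 nt was at 2.82, 7.16 and 7.22 FPKM in embryonic heart, 22.7, 12.3 and 8.93 in adult heart, and 0.760, 1.65 and 3.01 in adult muscle, with a difference of 3.03 ± 0.56 (SE, limma adjusted p = 0.00492). Its adult heart samples spread from 8.93 to 22.7 FPKM and did not overlap muscle. TCONS_00035862 (lnc1_ccbe1_1) at chromosome 17, 2208441 to 2211488, 3047 nt was at 3.33, 2.88 and 5.43 FPKM in embryonic heart, 9.73, 7.34 and 7.74 in adult heart, and 1.94, 1.32 and 1.33 in adult muscle, with a difference of 2.37 ± 0.29 (SE, limma adjusted p = 0.00046). For TCONS_00024033 the difference from muscle was 1.17 ± 0.20 (SE, limma adjusted p = 0.00353), and for TCONS_00039167 it was 2.61 ± 0.52 (SE, limma adjusted p = 0.00733).

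Of the lincRNAs below 1 FPKM, TCONS_00094606 (ledal8_1) was at 0.521, 0.597 and 0.861 FPKM in adult heart and 0.0129, 0.0419 and 0 in muscle, with a log2 difference of 2.67 ± 0.44 (SE, limma adjusted p = 0.00247). TCONS_00103161 (mstx21_1) was at 0.425, 1.11 and 0.369 FPKM against 0.0355, 0.0192 and 0.0237, with a difference of 2.41 ± 0.54 (SE, limma adjusted p = 0.0129). Both were in all embryonic heart samples too, at 0.247, 0.555 and 0.244 and at 0.211, 0.685 and 0.684 FPKM. No sample of either heart overlapped muscle for these lincRNAs. TCONS_00085213, named after the zinc finger gene thap1, was at 1.15, 1.36 and 0.836 FPKM in adult heart and 0.371, 0.316 and 0.389 in muscle, with a difference of 1.39 ± 0.37 (SE, limma adjusted p = 0.0277).

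The 5 lincRNAs higher in muscle were led by TCONS_00069509 (lnc1_dhps_1), the longest member (chromosome 3, 13098626 to 13109477, 10851 nt), named after the deoxyhypusine synthase gene. Its muscle samples were at 6.60, 1.76 and 9.86 FPKM and its heart samples at 0.0429, 0.115 and 0.107 in embryonic heart and 0.155, 0.125 and 0.0849 in adult heart. The level differed widely among the muscle samples, and all lay above every heart sample. The log2 difference between adult heart and muscle was -4.50 ± 0.60 (SE, limma adjusted p = 0.000831). Its higher heart mean, 0.122 FPKM in adult heart, was the lowest of the 64 and just over the listing threshold of 0.1 FPKM.

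TCONS_00087895 (ENSDART00000151386, chromosome 6, 6912108 to 6914161, 2053 nt) was at 2.38, 1.64 and 1.38 FPKM in embryonic heart, 0.284, 0.586 and 0.516 in adult heart, and 6.48, 11.3 and 8.55 in adult muscle, and its difference between adult heart and muscle was -3.99 ± 0.34 (SE, limma adjusted p = 5.87e-05). It was called in all 3 comparisons, with muscle above embryonic heart and embryonic heart above adult heart in every sample. TCONS_00091387 (tnnt3bpa_1) at chromosome 7, 40821138 to 40831379, 10241 nt, named after a fast skeletal troponin T gene, was at 0.136, 0.316 and 0.144 FPKM in embryonic heart, 0.197, 0.490 and 0.490 in adult heart, and 1.08, 2.46 and 2.24 in adult muscle, with a difference of -2.03 ± 0.48 (SE, limma adjusted p = 0.0151). Muscle samples lay above all heart samples. TCONS_00006133 and TCONS_00061032, the latter at 7.04, 5.69 and 4.91 FPKM in muscle, were called lower in adult heart than in muscle as well as than in embryonic heart, with differences from muscle of -1.84 ± 0.22 (SE, limma adjusted p = 0.000397) and -1.52 ± 0.23 (SE, limma adjusted p = 0.00145).

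Of the 13 calls between adult heart and muscle, 11 kept an adjusted p below 0.05 when each of the 6 samples was left out in turn. TCONS_00091387 lost its call without muscle replicate 1 or 2 (limma adjusted p up to 0.06), and TCONS_00085213 without adult heart replicates 0 or 1 or any muscle replicate (up to 0.104). The call of TCONS_00039167 was lost with a pseudocount of 0.01 (limma adjusted p = 0.0506) and that of TCONS_00103161 with a pseudocount of 1 (limma adjusted p = 0.0597).

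**Figure D4:**
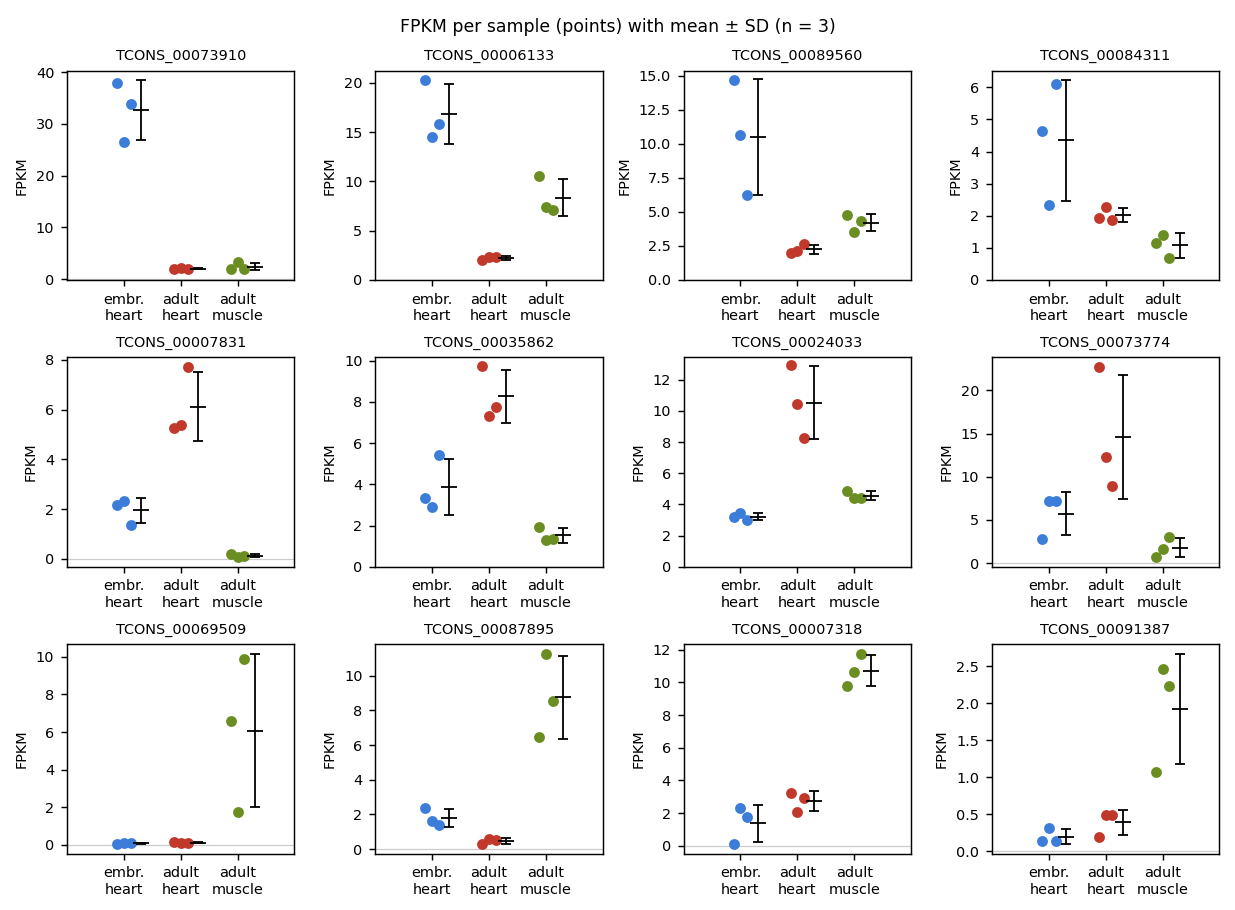
FPKM of 12 lincRNAs in each sample (points) with the mean and SD of the 3 samples of a tissue type (bars), each panel on its own linear axis. The top row shows lincRNAs with the highest level in embryonic heart, the middle row in adult heart and the bottom row in muscle, where TCONS_00069509 has muscle values of 6.60, 1.76 and 9.86 FPKM.

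Embryonic heart against adult muscle differed in both age and tissue, which cannot be told apart. Of the 64, 12 were higher in embryonic heart and 9 were higher in muscle, 32.8%, where 28.2% of all transcripts were called (10.9% higher in embryonic heart and 17.3% higher in muscle). Samples did not overlap for 15 in each direction, against 43.5% of all transcripts (17.4% and 26.1% by direction). The median log2 difference was 0.03 over the 64 and −0.13 over all transcripts, and 0.37 and 0.08 after quantile normalization. TCONS_00073910, TCONS_00007831, TCONS_00006133 and TCONS_00089560, with the values above, were higher in embryonic heart than in muscle, with log2 differences of 3.73 ± 0.24 (SE, limma adjusted p = 9.48e-06), 3.14 ± 0.33 (SE, limma adjusted p = 0.000161), 1.01 ± 0.22 (SE, limma adjusted p = 0.00723) and 1.22 ± 0.31 (SE, limma adjusted p = 0.0168). TCONS_00051646, TCONS_00069509, TCONS_00092012, TCONS_00094379, TCONS_00091387 and TCONS_00087895 were lower, with differences of -5.29, -4.75, -4.38, -2.82, -2.73 and -2.22 on the log2 scale, with adjusted p from 1.01e-05 to 0.00248 (limma). For the sum of TCONS_00092012 and the overlapping TCONS_00092013, the difference was -0.15 ± 0.49 (SE, limma adjusted p = 0.856), a fit chosen after the values were seen.

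Some lincRNAs were called between these tissue types and not between adult heart and muscle, although the change between comparisons was not itself tested. TCONS_00084311 (ENSDART00000156577, chromosome 5, 47938311 to 47938836, 525 nt) was at 4.63, 2.35 and 6.09 FPKM in embryonic heart, 1.94, 2.28 and 1.88 in adult heart, and 1.14, 1.41 and 0.670 in adult muscle, with a difference of 1.88 ± 0.39 (SE, limma adjusted p = 0.00628) between embryonic heart and muscle and of 0.91 ± 0.39 (SE, limma adjusted p = 0.138) between adult heart and muscle. TCONS_00007318 (gartpa_1) at chromosome 1, 1022220 to 1022648, 428 nt, named after the purine synthesis gene gart, had the highest muscle mean of the 64, 10.7 ± 0.970 FPKM (SD, n = 3). Its samples were at 0.111, 2.31 and 1.75 FPKM in embryonic heart, 3.25, 2.10 and 2.92 in adult heart, and 9.80, 10.6 and 11.7 in adult muscle. Muscle lay above every heart sample, and replicate 0 of embryonic heart was low. The difference between embryonic heart and muscle was -3.46 ± 0.79 (SE, limma adjusted p = 0.00986), and that between adult heart and muscle, -1.94, was not called (limma adjusted p = 0.12). In a fit of adult heart and muscle alone, which leaves the spread of embryonic heart out, the adjusted p was 0.000934, and with a pseudocount of 1 it was 0.0122 (limma). TCONS_00085647 (tbx2aoa2_1), named after the T-box gene tbx2a, was at 0.307, 1.03 and 1.14 FPKM in embryonic heart and 0.0372, 0.282 and 0.0496 in muscle, with a difference of 2.06 ± 0.65 (SE, limma adjusted p = 0.0427). TCONS_00032699 was lower in embryonic heart, at 0.213, 0.584 and 0.540 FPKM against 1.36, 1.78 and 1.44 in muscle, a difference of -1.65 ± 0.36 (SE, limma adjusted p = 0.0084).

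The remaining calls were those of TCONS_00035862, TCONS_00043278, TCONS_00085215, TCONS_00085664, TCONS_00094606 and TCONS_00103161, higher in embryonic heart by 1.26, 1.62, 6.33, 1.92, 1.87 and 2.19 on the log2 scale, and of TCONS_00100286, lower with a difference of -2.20. TCONS_00043278 was at 0.214, 0.407 and 0.0841 FPKM in embryonic heart and at 0 in all 3 muscle samples, and TCONS_00100286 at 0.0895, 0.0787 and below 0.001 in embryonic heart against 1.13, 0.317 and 0.545 in muscle. Leaving out each of the 6 samples in turn kept 15 of the 21 calls below an adjusted p of 0.05. The minimum ratio of 2 was not applied again in that count. TCONS_00006133 was near this minimum with all samples, at a ratio of means of 2.02. The adjusted p of TCONS_00089560 rose above 0.05 only without muscle replicate 1 (limma adjusted p = 0.0583). TCONS_00100286, at an adjusted p of 0.0499 (limma), was lost on leaving out any of the 6 samples (up to 0.155). TCONS_00043278 was lost without embryonic replicate 0 or 1 or any muscle replicate (up to 0.0756), TCONS_00085215 without embryonic replicate 0 or 2 or muscle replicate 1 or 2 (up to 0.0958), TCONS_00085647 without embryonic replicate 1 or 2 or muscle replicate 0 or 2 (up to 0.126), and TCONS_00085664 without embryonic replicate 0 or muscle replicate 0 or 2 (up to 0.0647). With a pseudocount of 1, TCONS_00094606 and TCONS_00103161 were no longer called (limma adjusted p = 0.0725 and 0.0808).

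Read across the comparisons, some lincRNAs fell into 6 orders, given here as a description since the comparisons share samples. The 14 called in only 1 comparison had none of these orders. A set of 5 lincRNAs were called higher in embryonic heart than in both adult tissues (TCONS_00006133, TCONS_00073910, TCONS_00085215, TCONS_00085664 and TCONS_00089560), 5 higher in adult heart than in both others (TCONS_00007831, TCONS_00024033, TCONS_00035862, TCONS_00039167 and TCONS_00085213) and 3 higher in muscle than in both hearts (TCONS_00069509, TCONS_00087895 and TCONS_00091387). A set of 4 were called lowest in embryonic heart (TCONS_00032699, TCONS_00051646, TCONS_00092012 and TCONS_00094379), 3 lowest in adult heart (TCONS_00006133, TCONS_00061032 and TCONS_00087895) and 4 lowest in muscle (TCONS_00007831, TCONS_00035862, TCONS_00094606 and TCONS_00103161). TCONS_00006133, TCONS_00007831, TCONS_00035862 and TCONS_00087895 were called in all 3 comparisons, so that each tissue type was separated from both others. For TCONS_00006133 the ratio of means between embryonic heart and muscle, 2.02, was near the minimum of 2. The call of TCONS_00035862 between the hearts was lost on leaving out any adult heart replicate. Calls of TCONS_00032699, TCONS_00085213, TCONS_00085215, TCONS_00085664, TCONS_00089560 and TCONS_00091387 that enter these orders were also lost without certain samples, as given above. TCONS_00007831 and TCONS_00035862 had the order adult heart, embryonic heart, muscle, with no overlap between neighbors.

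Length classes differed in their counts. Between adult heart and muscle, 2 of the 34 lincRNAs of 200 nt to under 1000 nt were called, against 9 of the 22 of 1000 nt to under 5000 nt and 2 of the 7 of 5000 nt or more. Between the hearts, the counts were 10 of 34, 11 of 22 and 2 of 7, and between embryonic heart and muscle 9 of 34, 8 of 22 and 3 of 7. Of all transcripts tested, 20.7% were called between adult heart and muscle, 19.4% between the hearts and 28.2% between embryonic heart and muscle. No test was made between classes, and a longer transcript collects more fragments at the same FPKM. The 7 members of 5000 nt or more are TCONS_00007943, TCONS_00017304, TCONS_00032699, TCONS_00044625 (itgb1b.2pa_1), TCONS_00069509, TCONS_00091387 and TCONS_00094792 (lnc1_znf143a_1). Their median of means was 0.446 FPKM for embryonic heart, 0.746 for adult heart and 1.53 for muscle. Between embryonic heart and muscle, 3 of the 7 (TCONS_00032699, TCONS_00069509 and TCONS_00091387) were called and each was higher in muscle. Of all transcripts, 17.3% were called higher in muscle in that comparison. TCONS_00044625, named after the integrin gene itgb1b.2, was at 0.245, 0.362 and 0.374 FPKM in adult heart against below 0.001, 0.111 and 0.0654 in embryonic heart, and the difference was not called (limma adjusted p = 0.0637, and 0.043 with a pseudocount of 1).

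The study listed 12 of the 64 as cardiac-specific, that is above 0.1 FPKM in at least 2 samples of a heart and in fewer than 2 of muscle, and the deposited values gave the same listing. For 4 of the 12 no muscle sample exceeded 0.1 FPKM, and for the other 8 a single muscle sample did. Their higher heart mean ran from 0.235 to 64.3 FPKM with a median of 0.59, and their muscle mean from 0 to 5.78 FPKM, the last being that of TCONS_00085215. TCONS_00102974 (zgc:158316pa_1), for example, was at 0.201, 0.253 and 0.349 FPKM in embryonic heart, 0.370, 0.326 and 0.293 in adult heart and 0.170, 0 and 0.0908 in muscle, and neither of its heart-against-muscle comparisons was called (limma adjusted p = 0.123 and 0.0813). TCONS_00103233 (ube2e3oa_1) was at 0, 0.771 and 0.106 FPKM in adult heart, 0.600, 0 and 0 in embryonic heart and 0, 0 and 0.0984 in muscle, with a 0 in each tissue type. TCONS_00094606, TCONS_00103161, TCONS_00043278, TCONS_00085215, TCONS_00085647 and TCONS_00085664 are the members of the 12 that were called higher in a heart than in muscle. The listing rests on the same values and set this direction in large part, so the direction is not a result. Among all transcripts tested, the shares called toward the heart side against muscle were 9.6% for adult heart and 10.9% for embryonic heart.

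Of the 30 lincRNAs called in no comparison, several stood at similar levels throughout and others were spread widely within a tissue type. TCONS_00043034 (ext1cia_1) was at 1.83, 2.02 and 0 FPKM in embryonic heart, at 0 in all 3 adult heart samples and at 0.371, 0.134 and 0 in muscle, and was not called between the hearts (limma adjusted p = 0.108). Without embryonic replicate 2, the sample at 0, its log2 difference was -4.34 (limma adjusted p = 0.00409). TCONS_00045530 (ENSDART00000156245) was at 0.824, below 0.001 and 1.03 FPKM in embryonic heart, below 0.001 in all 3 adult heart samples, and at below 0.001, 0.865 and 0.539 in muscle. In both TCONS_00043034 and TCONS_00045530, 1 embryonic sample was at or near 0 while the others were near or above 1 FPKM. TCONS_00028063 (ledal3_1) was at 3.85, 3.89 and 2.33 FPKM in embryonic heart, 3.17, 2.42 and 1.93 in adult heart, and 2.83, 2.09 and 2.93 in adult muscle, and TCONS_00083423 (ENSDART00000154495) at 4.39, 3.85 and 2.93 FPKM in embryonic heart, 3.17, 2.74 and 2.58 in adult heart, and 2.12, 1.90 and 1.96 in adult muscle. For TCONS_00083423 embryonic heart lay above muscle in every sample (limma adjusted p = 0.0178), with a ratio of means of 1.87, under the minimum of 2.

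Beside the other classes of cardiac lincRNA chosen with the same placement and exclusions, the single-exon lincRNAs had the following shares of calls, which were not tested against each other. Between the hearts 37.5% of the 64 were called, against 17.7% of those with 2 exons, 32.0% of those with 3 or more exons and 32.9% of the unannotated ones. The median log2 difference was 0.23 for the 64, 0.47 and 0.09 for the spliced annotated classes, and 0.96 for the unannotated lincRNAs. Between adult heart and muscle the shares were 20.3%, 16.9%, 17.2% and 32.9%, and between embryonic heart and muscle they were 32.8%, 33.9%, 36.1% and 36.0%. Of all transcripts tested, 19.4% were called between the hearts, 20.7% between adult heart and muscle and 28.2% between embryonic heart and muscle. In the last comparison 12 of the single-exon lincRNAs were called toward embryonic heart and 9 toward muscle, and the other classes had 18 and 24, 17 and 27, and 40 and 79. Which direction held more of the 64 was not stable: the counts toward embryonic heart and toward muscle were 5 and 8 when limma's adjusted p had to be below 0.01, 8 and 8 with a filter at 1 FPKM, 8 and 9 without embryonic heart replicate 0, and 8 and 9 without muscle replicate 2. Within the 64, names from Ensembl gave 12 calls of 27 between the hearts, 6 in each direction, and names from zflncRNApedia gave 8 toward adult heart and 4 toward embryonic heart of 37. Between adult heart and muscle, 1 Ensembl-named lincRNA was called higher in heart and 3 higher in muscle, against 7 and 2 of those named by zflncRNApedia. Of all transcripts, 9.6% were called toward adult heart and 11.1% toward muscle in that comparison. These counts by name are few and were not tested, and the call of TCONS_00085213, among the 7, was lost without several samples, as given above.

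**Figure D5:**
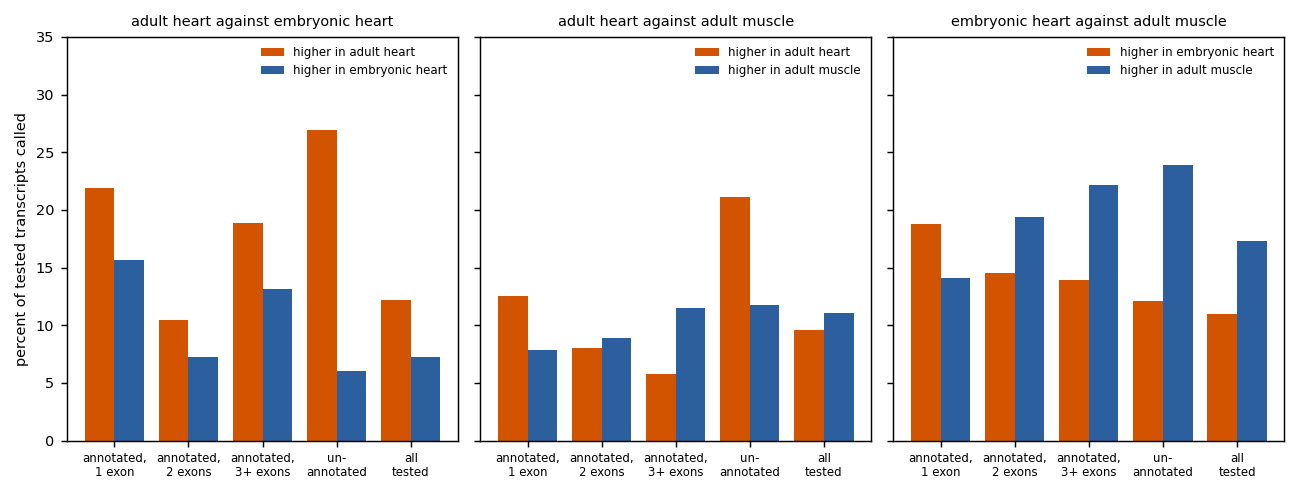
Bars give the percent of tested transcripts called in each direction for annotated cardiac lincRNAs with 1 exon (64), 2 exons (124 tested), 3 or more exons (122), unannotated cardiac lincRNAs (331 tested) and all 69118 transcripts. For 1 exon, the bars between the hearts stand at 21.9% and 15.6%, beside 12.2% and 7.23% for all transcripts.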

How the data were processed

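Total RNA of 9 wild type zebrafish samples was sequenced by the authors as 50-nt paired reads on an Illumina HiSeq instrument. The authors aligned reads with TopHat 2.0.12 to Zv9 with Ensembl release 79, assembled transcripts with Cufflinks 2.2.1, and deposited FPKM values per assembled transcript from Cuffnorm, whose scaling option and strand setting are not given in the sources used here. FPKM is not a count, and a value for a transcript that shares its locus with another is an estimated share.

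Lists, exon numbers, coordinates and names came from the study's supplementary tables. Tissue types were compared with limma 3.58.1 in R 4.3.3 on log2(FPKM + 0.1), with all 9 samples in a single fit and a variance prior that follows intensity. P-values were adjusted after Benjamini and Hochberg (Benjamini-Hochberg) for the 69118 transcripts tested. The fit was also run on simulated data with changes placed only in more abundant transcripts, so that run does not cover members with low values. To be called, a transcript had to reach an adjusted p under 0.05 and differ by more than 2 in the ratio of its mean FPKM. Members and lists were chosen with earlier results of these data known.

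Named lincRNAs were, per comparison, up to 10 called rises and 10 called falls with samples that do not overlap, the 6 highest means per tissue type, those at 0 throughout a tissue type, the shortest, those of 5000 nt or more, the overlapping pair, and the one with primers. TCONS_00028063, TCONS_00045530, TCONS_00083423, TCONS_00102974 and TCONS_00103233 were chosen as examples after their values were seen. Alternatives changed the pseudocount, filter, scaling, variance model, samples in the fit, replicate block and threshold. Figures were drawn with matplotlib 3.10.9.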

Additional observations from a re-analysis of the deposited data

How the results depend on the processing

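No alternative turned the sign of a named lincRNA that had been called. At an adjusted p below 0.01 in limma, 6 lincRNAs were called toward adult heart and 7 toward embryonic heart, 6 toward adult heart and 4 toward muscle, and 5 toward embryonic heart and 8 toward muscle, and over all transcripts the calls in those directions were 4109 and 2798, 3812 and 4912, and 5071 and 8025. With each sample left out in turn, the count of lincRNAs higher in adult heart than in embryonic heart ran from 8 to 12.

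Deviations of samples with the same replicate number correlated weakly. The averages were 0.023 in adult against embryonic heart, 0.016 in adult heart against muscle and 0.013 in embryonic heart against muscle. Single pairs of adult heart and muscle ran from -0.0161 to 0.0715. Such low values cannot show whether samples with the same number share a fish. With the replicate number as a block, the calls in those comparisons were 11 and 8, 7 and 6, and 11 and 8 among the lincRNAs, and 7162 and 4497, 5877 and 7009, and 7189 and 11162 over all transcripts. Of the 24, 13 and 21 calls, 15, 9 and 13 kept an adjusted p below 0.05 under every setting in which they were tested and every omission of a sample; TCONS_00062814 (between the hearts) and TCONS_00094606 (adult heart against muscle) among them were left out by the filter at 1 FPKM. Low values on short transcripts rest on few fragments, so a missed call there does not show equal levels.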
